A study of Mus musculus with 8 samples.

Results

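Cytosolic ribosomal proteins are the protein subunits of the ribosomes that translate nuclear mRNAs, and they were followed here in mouse muscle that received a plasmid for p21. They were taken as all probes whose gene symbol starts with Rpl or Rps and a number, together with Rplp0, Rplp1, Rplp2 and Rpsa, leaving out the S6 kinases and a binding protein that share the prefix. This gave 83 of 25697 probes, 53 for the large and 30 for the small subunit, for 65 of 16593 genes (40 large, 25 small). Of these genes 58 encode core proteins of the ribosome, while Rpl3l, Rpl22l1, Rpl7l1, Rpl36al, Rpl39l and Rps27l are paralogues and Rps23rg1 is a retrogene caught by the same symbols.

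Tibialis anterior muscle, from the front of the lower leg, was collected from male C57BL/6 mice aged 8 weeks, 7 days after transfection with a p21 plasmid (4 arrays) or with a control plasmid (4 arrays). All muscles were thus transfected, and the labels give neither the share of fibers that took up a plasmid nor which samples share a mouse. The p-values therefore rest on the spread among these samples alone, and part of that spread may be technical. In whole muscle, fewer cells of a type and less RNA per cell cannot be told apart. The study set the 2 plasmids side by side to follow muscle mRNA under p21 overexpression. p21 is a cell cycle inhibitor encoded by Cdkn1a.

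Ribosomal protein genes are transcribed in step with one another in growing cells, because each ribosome needs about equal numbers of nearly all of its proteins. Most of their mRNAs begin with a run of pyrimidines, the terminal oligopyrimidine or TOP sequence, through which the growth kinase mTOR and the protein Larp1 control their translation. Skeletal muscle and heart are known for an exchange within the large subunit, in which Rpl3l takes the place of Rpl3, a protein next to the catalytic centre. In mouse muscle Rpl3 is known to be higher, and Rpl3l lower, during growth and regeneration.

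Each array gave log2 intensities from 8.13 to 15.27 with a median of 8.39, already normalized to the same distribution. Such values show changes relative to the rest of the array and not in the total amount of RNA. The brightest of 3 Cdkn1a probes read 11.31, 11.72, 11.25 and 11.50 in p21 muscles, against 9.83, 9.92, 10.27 and 10.02 in control muscles, so every p21 array lay above every control array. The 12 markers of skeletal muscle fibers averaged 14.55 to 14.64 per p21 array and 14.70 to 14.72 per control array. The array of p21 replicate 2 stood apart among ribosomal protein genes. Of the 43 core genes with a probe brighter than the median probe, 27 had their highest value of all 8 arrays in it, against 0, 1 and 6 in p21 replicates 1, 3 and 4. A change is the p21 mean minus the control mean in log2 units, with its SE from limma. A level is a mean log2 intensity with its SD over 4 arrays, and "rose" or "fell" means an adjusted p under 0.05 over all probes.

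In p21 muscles 11 of the 65 ribosomal protein genes rose, and limma called 0 lower. The 11 probes that passed were 6 of 53 for the large subunit (Rpl3, Rpl13a, Rpl19, Rpl36a, Rpl27 and Rpl28) and 5 of 30 for the small subunit (Rps3a1, Rps9, Rps26, Rps7 and Rps24). Over the whole array 3.68% of probes were called higher and 4.35% lower. At an unadjusted p under 0.05, 32 of the 83 probes were higher and 3 lower, where 2627 and 3168 of all 25697 probes were. In 24 probes every p21 array lay above every control array and in 0 the reverse, where these shares were 7.41% and 9.34% over all probes. When replicate number entered the fit as a block, 15 probes passed, 7 for the large and 8 for the small subunit, against 6.07% of all probes called higher and 6.33% lower, and Rpl30, Rps23 and the dimmer of 2 Rps3 probes joined those that passed. By the brightest probe of each gene 13 genes passed with the block.

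**Figure D1:**
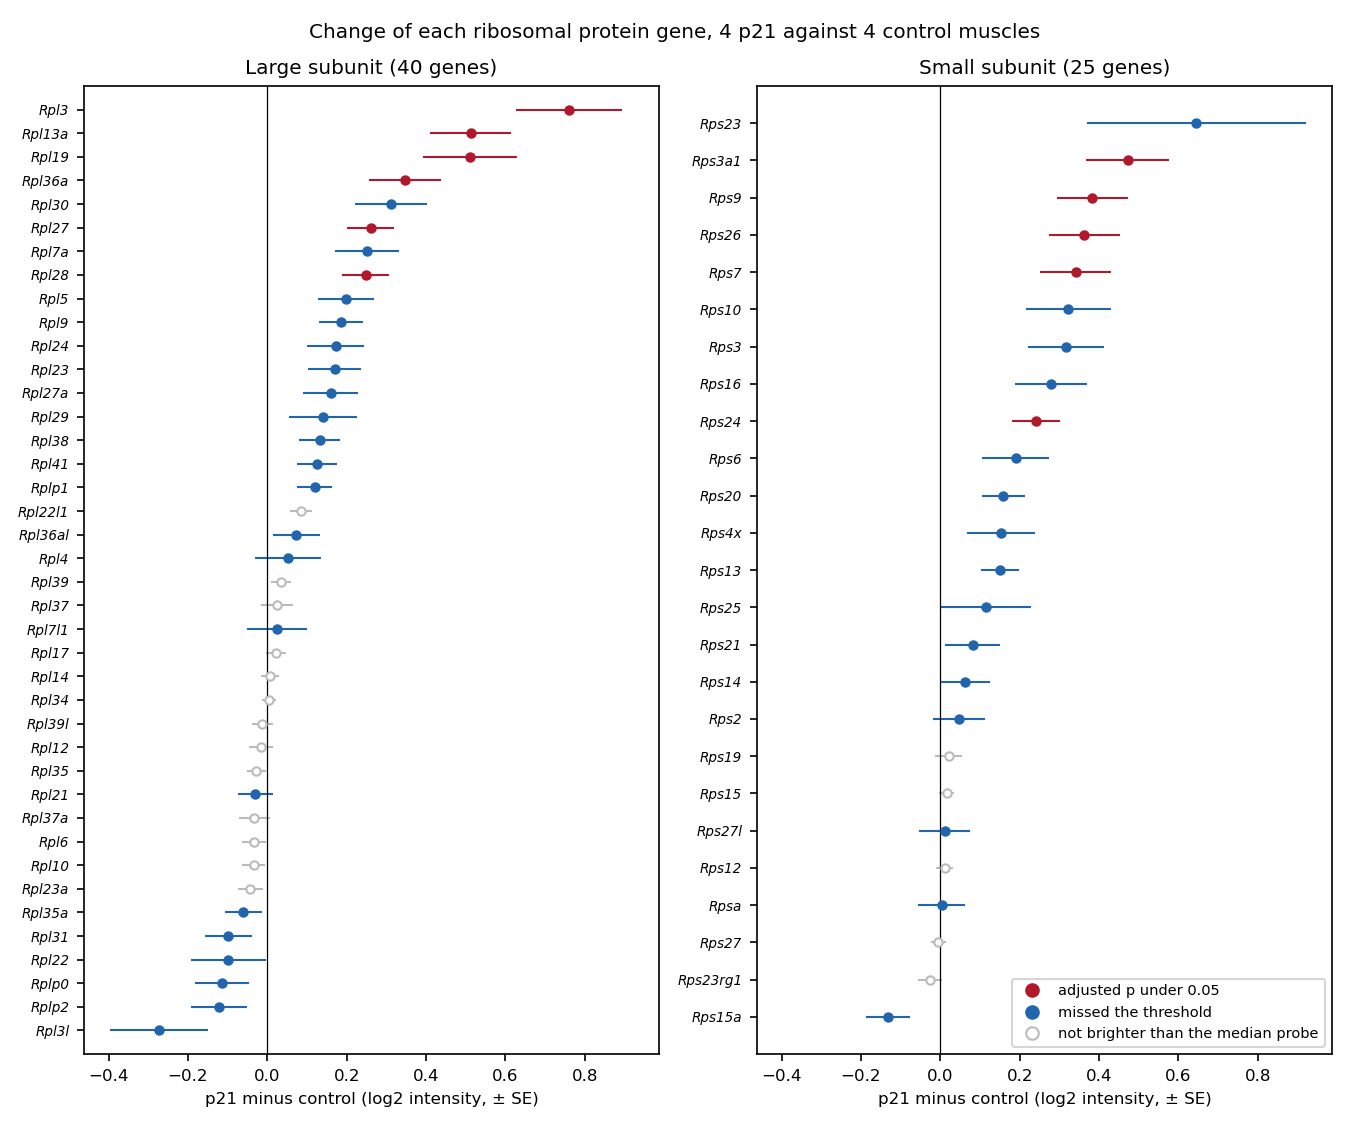
Change of each of the 65 genes, by its brightest probe, in p21 against control muscles (log2 intensity, bars ± SE), for the 40 large subunit genes on the left and the 25 small subunit genes on the right. Filled red points passed adjusted p 0.05, and open grey points mark probes no brighter than the median probe, which lie near 0. Rpl3 stands at 0.76 and its paralogue Rpl3l at −0.27.

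The changes were small, and probes near the floor of the scale showed almost none. Of the 83 probes 57 had a change above 0, where 47% of all probes had one. By the brightest probe of each gene, the median change was 0.04 for the 40 large subunit genes and 0.15 for the 25 small subunit genes, where the median over all probes was −0.004. The small subunit median was 0.06 without p21 replicate 2, and the large subunit median was 0.07 without control replicate 1 and 0.03 without control replicate 2. Over genes with a probe brighter than the median probe the medians lay closer, at 0.14 for 27 large and 0.17 for 20 small subunit genes. Of the 83 probes, 28 were no brighter than the median probe, near the floor of the scale. Of these limma called 0 in either direction (1 higher and 1 lower at an unadjusted p under 0.05), and their changes lay between −0.08 and 0.08. Over the whole array 27 of 12849 probes no brighter than the median probe were called higher and 18 lower. For 18 member genes, among them Rps19, Rps27, Rpl6, Rpl10 and Rpl14, every probe was in this range, so a change could easily be missed. The rest of the 28 belong to genes that also have a brighter probe. The other 55 member probes had a median of 0.15, with 46 above 0, where 46% of all probes that bright were above 0. All 11 calls fell among them, where 7.15% of all probes that bright were called higher and 8.57% lower. Within these, the 42 probes with a mean up to 14 had a median change of 0.18 and 10 calls, and the 13 above 14 had a median of 0.13 and 1 call. Of the 12720 and 128 probes of these ranges over the whole array, 908 and 10 were called higher and 1090 and 11 lower. Their medians were −0.01 and −0.03. The 1 call among the 13 brightest members lay near the share for that range. Whether the brightest probes are compressed toward the top of the scale was not tested.

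**Figure D2:**
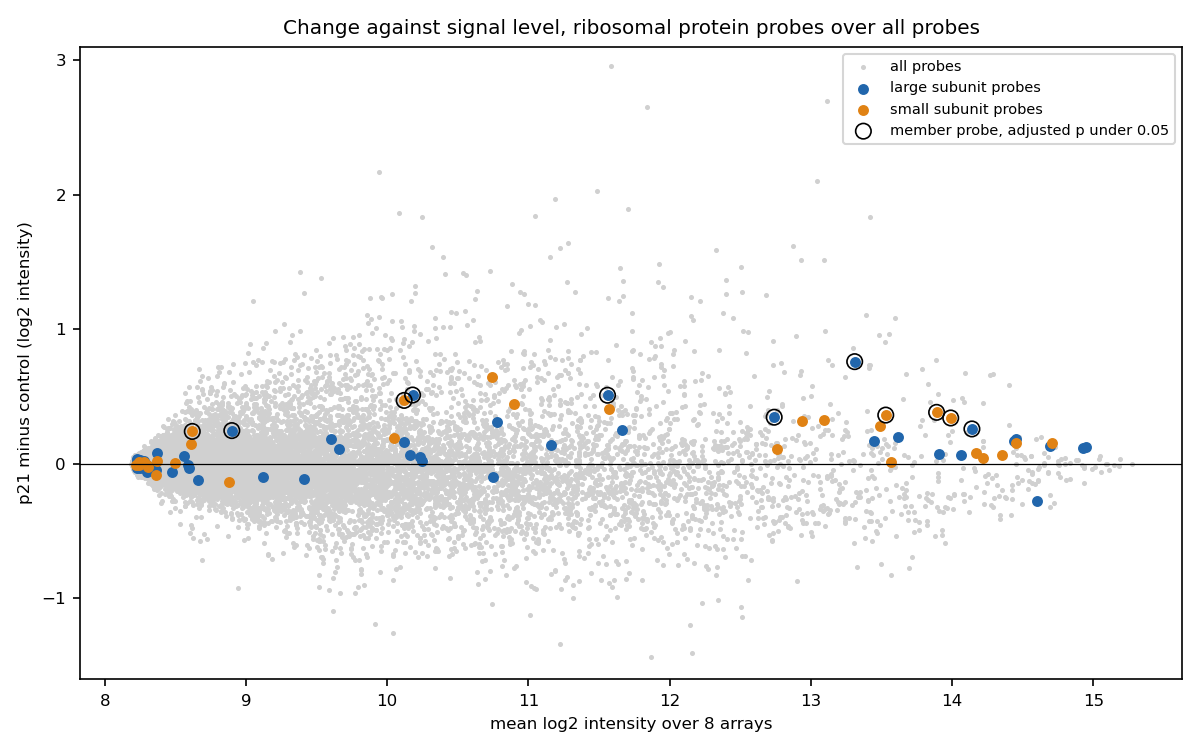
Change in p21 against control muscles (log2 intensity) against mean log2 intensity over 8 arrays, for all 25697 probes in grey, large subunit probes in blue and small subunit probes in orange. Circled are the 11 ribosomal protein probes past adjusted p 0.05. Members near 8.2 lie on the zero line, and most brighter ones lie above it.

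Rpl3 had the largest change of the 65 genes, and its muscle paralogue Rpl3l the lowest. Rpl3 read 13.54, 14.03, 13.50 and 13.71 in p21 muscles, against 12.60, 12.98, 13.10 and 13.06 in control muscles. All p21 values lay above all control values, with control replicate 1 the lowest. Rpl3 rose by 0.76 ± 0.13, or 1.69-fold (adjusted p = 0.0124; exact two-sided permutation p = 0.0286, the smallest that 4 against 4 arrays taken as unpaired allow). It was the member whose call held under the most left-out arrays, and it was lost only without p21 replicate 4 (adjusted p = 0.054).

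Rpl3l read 14.70, 14.01, 14.66 and 14.50 in p21 muscles, against 14.82, 14.72, 14.76 and 14.66 in control muscles. The groups overlapped, since p21 replicate 1 lay above control replicate 4, and p21 replicate 2 lay far below the other 7 arrays. The change of −0.27 ± 0.12 missed the threshold (adjusted p = 0.215; exact permutation p = 0.0857), with a 95% interval from −0.54 to −0.003. Without p21 replicate 2 it was −0.12. The log2 difference of the Rpl3 probe over the Rpl3l probe, whose shift shows unequal change within an array, was greater by 1.03 in p21 muscles than in control muscles. In all 4 p21 arrays this difference lay above all 4 control arrays (exact permutation p = 0.0286, adjusted p = 0.0714 over the 5 paralogue pairs measured). Without p21 replicate 2 the difference was 0.77.

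**Figure D3:**
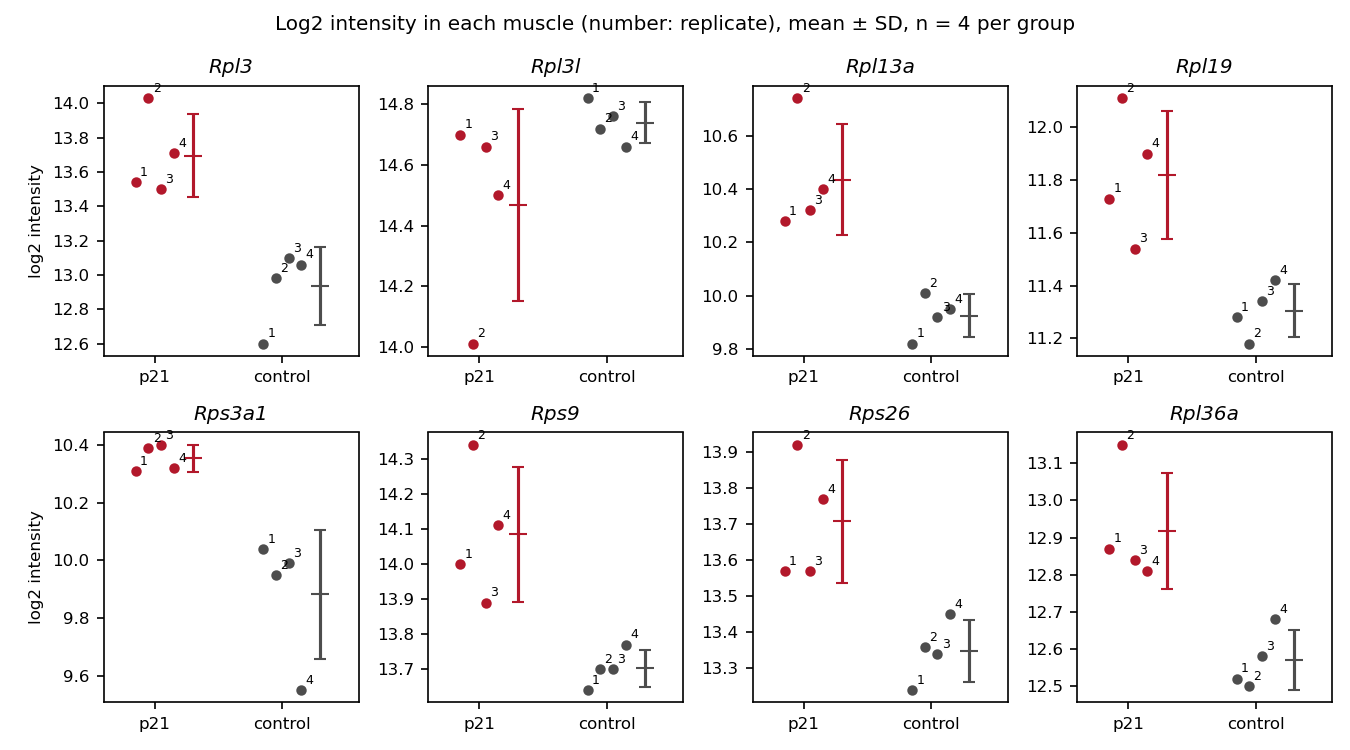
Log2 intensity of 8 ribosomal protein genes in each p21 muscle (red, left) and each control muscle (grey, right), with the replicate number beside each point and the mean ± SD (n = 4) to the right. In 7 genes the groups do not overlap, and in Rpl3l they do. The array of p21 replicate 2 is the highest of its group in 6 of the 8 genes and the lowest in Rpl3l.

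The remaining large subunit genes that rose have distinct places in the ribosome. Rpl13a, which is known in human myeloid cells to leave the ribosome and block translation of inflammatory mRNAs, read 10.28, 10.74, 10.32 and 10.40 in p21 muscles, against 9.82, 10.01, 9.92 and 9.95 in control muscles. It rose 1.43-fold, by 0.51 ± 0.10 (adjusted p = 0.0178). Rpl19, which reaches across to the small subunit as a bridge, read 11.73, 12.11, 11.54 and 11.90 in p21 muscles, against 11.28, 11.18, 11.34 and 11.42 in control muscles. It rose 1.42-fold (adjusted p = 0.0274), and the groups did not overlap in either gene. Rpl36a, near the site where spent tRNA leaves, read 12.92 ± 0.16 in p21 muscles and 12.57 ± 0.08 in control muscles, and rose 1.27-fold (adjusted p = 0.0403). Rpl27, in which human variants are known in Diamond-Blackfan anemia, a failure of red cell production, read 14.27 ± 0.09 in p21 muscles and 14.01 ± 0.03 in control muscles (adjusted p = 0.0271). Rpl28 read 9.03 ± 0.11 in p21 muscles and 8.78 ± 0.03 in control muscles (adjusted p = 0.0315), with all p21 arrays above all control arrays as in Rpl36a and Rpl27.

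Several further large subunit genes had separate groups but missed the threshold. Rpl30 read 10.93 ± 0.16 in p21 muscles and 10.62 ± 0.04 in control muscles (adjusted p = 0.057, and 0.0482 with the replicate block). Rpl5, which binds Mdm2, the ubiquitin ligase of p53, when ribosome assembly is disturbed, read 13.72, 13.84, 13.69 and 13.61 in p21 muscles, against 13.56, 13.51, 13.41 and 13.60 in control muscles (adjusted p = 0.114). The groups touched but did not overlap. Rpl11, the partner of Rpl5 in that role, was not analysed here. Rpl23, which also binds Mdm2, had a change of 0.17 ± 0.07 by its brightest probe, with overlapping groups (adjusted p = 0.152). Its other 3 probes gave 0.07, 0.18 and 0.03, and the groups lay apart in the one at 0.18. Rpl7a, Rpl9, Rpl27a and Rpl38 lay apart by group, with changes of 0.25, 0.18, 0.16 and 0.13.

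The stalk proteins, which recruit elongation factors to the large subunit, did not pass in any probe. Rplp1 read 14.99, 15.02, 14.99 and 14.99 in p21 muscles, against 14.88, 14.88, 14.81 and 14.92 in control muscles (change 0.12 ± 0.04, adjusted p = 0.121). It lies near the top of the scale, and the groups did not overlap. Rplp0, often used as a reference transcript in quantitative PCR, read 9.44, 9.20, 9.44 and 9.32 in p21 muscles, against 9.49, 9.50, 9.48 and 9.40 in control muscles (change −0.11 ± 0.07, adjusted p = 0.373). Its groups overlapped, with p21 replicate 2 the lowest. Rplp2 had a change of −0.12 ± 0.07 (adjusted p = 0.349), and p21 replicate 2 was again the lowest array. Rpl31 and Rpl22 had changes of −0.10 each, with adjusted p of 0.372 and 0.611.

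In the small subunit the genes that rose include proteins that line the path of the mRNA. Rps3a1, which encodes Rps3a near the exit of that path, read 10.31, 10.39, 10.40 and 10.32 in p21 muscles, against 10.04, 9.95, 9.99 and 9.55 in control muscles. The p21 arrays lay close together and above all controls, of which replicate 4 was the lowest. The rise was 0.47 ± 0.10, or 1.39-fold (adjusted p = 0.0239). Rps9, at the entry of the path, read 14, 14.34, 13.89 and 14.11 in p21 muscles, against 13.64, 13.70, 13.70 and 13.77 in control muscles. It rose 1.30-fold (adjusted p = 0.0271), and its dimmer probe had a change of 0.41 with adjusted p = 0.0524. Rps26, which contacts the mRNA upstream of the start codon, read 13.57, 13.92, 13.57 and 13.77 in p21 muscles, against 13.24, 13.36, 13.34 and 13.45 in control muscles, and rose 1.29-fold (adjusted p = 0.0324). The groups did not overlap in any of these 3 genes.

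Rps7 and Rps24, both known from human Diamond-Blackfan anemia as is Rps26, also rose. Rps7 read 14.03, 14.45, 14.05 and 14.09 in p21 muscles, against 13.79, 13.79, 13.80 and 13.88 in control muscles (1.27-fold, adjusted p = 0.040). Here p21 replicate 2 lay far above the rest. Rps24 read 8.58, 8.85, 8.76 and 8.78 in p21 muscles, against 8.55, 8.53, 8.41 and 8.50 in control muscles (1.18-fold, adjusted p = 0.0336). This probe is close to the floor, and p21 replicate 1 barely cleared the controls. The second Rps24 probe, at a mean of 8.30, had a change of −0.01 (adjusted p = 0.864), and lies near the floor, where a change could easily be missed.

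Rps23, a protein of the decoding centre, had the largest change of the small subunit but also the widest spread. It read 10.89, 10.41, 11.34 and 11.63 in p21 muscles, against 9.83, 10.19, 11.03 and 10.64 in control muscles. The groups overlapped and the change of 0.65 ± 0.28 missed the threshold (adjusted p = 0.189). Each p21 array was above the control array of the same number, and with the replicate number as a block Rps23 passed (adjusted p = 0.0157). It also passed without p21 replicate 2, here the lowest p21 array. Rps3, which lies with Rps9 at the mRNA entry, had changes of 0.32 ± 0.10 and 0.45 by its 2 probes, with adjusted p of 0.0655 and 0.0514. Rps10 and Rps16 had changes of 0.32 ± 0.11 and 0.28 ± 0.09 (adjusted p = 0.0898 and 0.0845).

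Other small subunit genes with known roles beyond the ribosome did not pass. Rps6, the substrate of the S6 kinases downstream of mTOR, read 10.14 ± 0.13 in p21 muscles and 9.95 ± 0.09 in control muscles (adjusted p = 0.206). Rps14, whose loss is known in human myelodysplasia, read 14.38 ± 0.09 in p21 muscles and 14.32 ± 0.06 in control muscles (adjusted p = 0.613). Rpsa, the laminin receptor precursor, had a change of 0.003 ± 0.06, with a 95% interval from −0.13 to 0.13 (adjusted p = 0.984). This probe had a mean of 8.50, close to the floor, and the second Rpsa probe lay at 8.22. At this signal the narrow interval does not show that Rpsa was unchanged. Rps15a had the lowest change of the small subunit, −0.13 ± 0.05 (adjusted p = 0.171). Rps27l, a known p53 target gene, read 13.67, 13.56, 13.54 and 13.55 in p21 muscles, against 13.66, 13.48, 13.56 and 13.58 in control muscles. Its change was 0.01 ± 0.07, with a 95% interval from −0.13 to 0.15, and the groups overlapped fully.

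Of the 5 paralogue pairs measured, both probes were brighter than the median probe in Rpl3 with Rpl3l and in Rpl36a with Rpl36al. Rpl36al, an intronless copy that encodes almost the same protein as Rpl36a, read 13.91, 13.96, 13.92 and 14.01 in p21 muscles, against 13.91, 13.83, 13.81 and 13.96 in control muscles. Its change was 0.07 ± 0.06 (adjusted p = 0.532), while Rpl36a rose. The log2 difference between the 2 probes was greater by 0.27 in p21 than in control muscles, with no overlap (exact permutation p = 0.0286, adjusted p = 0.0714 over 5 pairs). Rpl22l1, which Rpl22 is known to hold down in mouse, read 8.41 ± 0.02 in p21 muscles and 8.33 ± 0.03 in control muscles, near the floor (adjusted p = 0.0894). The pairs Rpl39 with Rpl39l and Rps27 with Rps27l each had a probe at the floor, and their exact permutation p was 0.286 and 0.800. Mouse ribosomal protein genes have many processed copies, and whether probes also read transcripts of such copies was not tested.

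**Figure D4:**
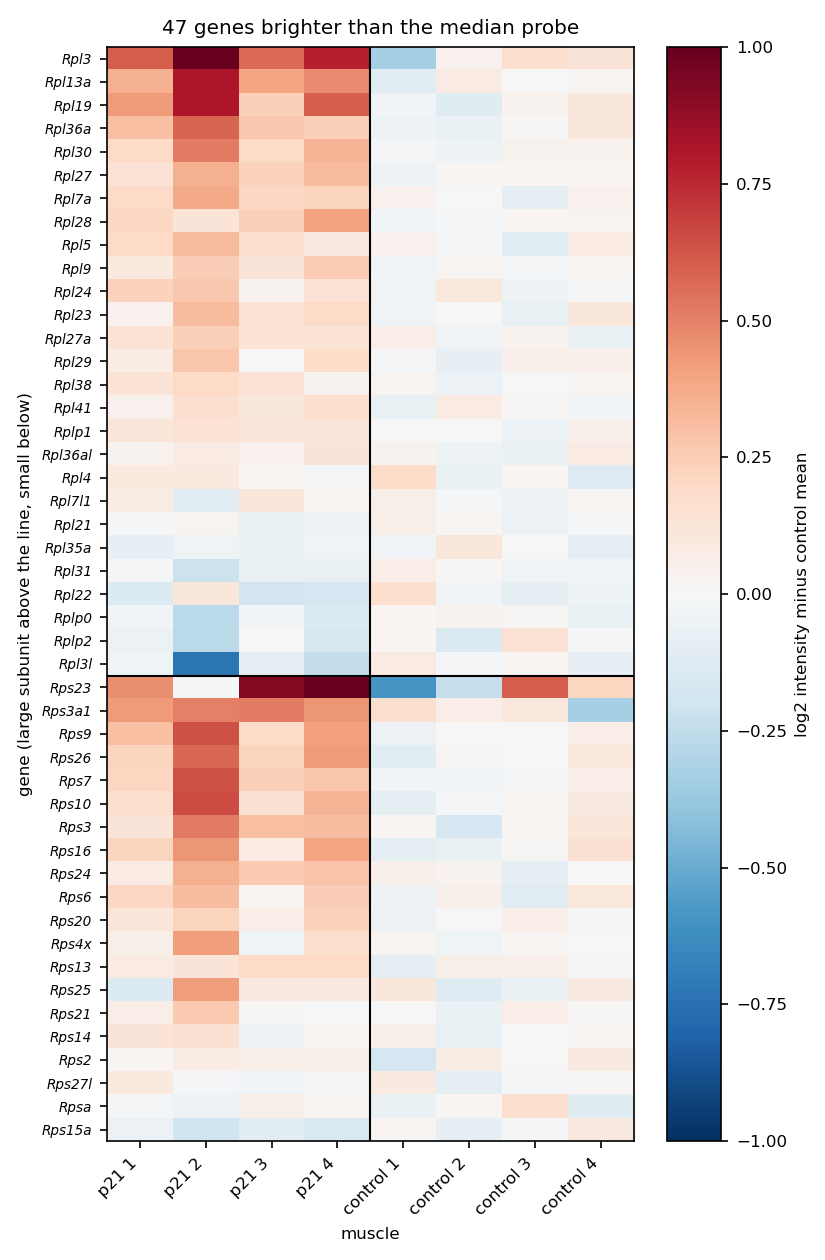
Deviation of log2 intensity from the mean of the 4 control muscles for the 47 genes with a probe brighter than the median probe (rows, large subunit above the line), in p21 replicates 1 to 4 (left) and control replicates 1 to 4 (right). Red is higher and blue lower, and the colour scale ends at 1 and −1. The column of p21 replicate 2 is the deepest red in most rows and the deepest blue in Rpl3l.

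Means over the brighter ribosomal protein genes lay apart by group, and p21 arrays differed in how far they stood from the controls. Averaged over the 27 large subunit genes with brighter probes, the mean log2 intensity was 11.87, 11.95, 11.86 and 11.89 in p21 muscles, against 11.75, 11.74, 11.74 and 11.76 in control muscles. Over the 20 such small subunit genes it was 12.27, 12.43, 12.28 and 12.38 in p21 muscles, against 12.09, 12.09, 12.17 and 12.17 in control muscles. No p21 mean overlapped the control means, and p21 replicates 2 and 4 were the highest. Of the 43 brighter core genes, 34, 36, 34 and 34 lay above the control mean in p21 replicates 1 to 4. The median deviation was 0.28 in p21 replicate 2 and 0.19 in p21 replicate 4, against 0.13 in each of p21 replicates 1 and 3. These averages are descriptions and carry no test.

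How many calls remain depends on single arrays. Without p21 replicate 2 still 11 genes passed, of which 10 were shared, with Rps24 lost and Rps23 gained. Without p21 replicate 4 limma called 0 of the 83 probes, and 0.506% of all probes were called higher. Without control replicates 1, 2, 3 and 4 the members called were 2, 1, 3 and 7, where 0.985%, 0.953%, 2.19% and 2.75% of all probes were called higher. Rps3a1 was lost without p21 replicate 4 or control replicate 2, and Rpl13a without p21 replicate 4 or control replicate 1 or 2. Rpl19, Rps9 and Rps26 were lost without p21 replicate 4 or control replicate 1, 2 or 3, and Rpl27 and Rps7 without p21 replicate 4 or any control. Rpl36a was lost also without p21 replicate 1, Rpl28 also without p21 replicate 3, and Rps24 also without p21 replicate 2 or 3. In all of these 11 genes the groups did not overlap, so leaving out a single array could not have turned the direction of the change.

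The promoters of the ribosomal protein genes share letters that the choice of genes did not use. RefSeq promoter windows (build GRCm38.p6, 250 bases before to 50 after an annotated start) were matched for 56 of the 65 genes. The letters CGGAAG on either strand (CTTCCG on the other), the core bound by ETS factors such as GABP, were in 38 of 56 genes, or 67.9%, against 18.8% of the 27025 genes of the table. A run of at least 8 pyrimidines within 20 bases of the start was in 27 of 56, or 48.2%, against 18.4%. TATAAA, the TATA box, was in 6 of 56 (10.7%) against 15.7%. The 3 patterns were picked with knowledge of this gene class, overlaps between them were not removed, and a match does not show that a factor binds. Among the 10 genes that rose and had a window, 5 held CGGAAG and 6 the pyrimidine run, against 33 and 21 of the other 46, so neither pattern was held by all of the genes that rose.

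The start regions of 4 genes that rose with a pyrimidine run show where the run lies, which is across the annotated start in Rpl28 and Rps9 and just after it in Rpl13a and Rps26. That of Rpl3l, which has no run that long, is given beside them. Not printed are Rps24, whose run lies across its first annotated start, and Rpl19, whose run ends right before its second. Each line gives 20 bases before and 20 after the start on the gene's strand, and capitals mark the run. Annotated starts can lie some bases from the true start. The windows are chr7:45128726-45128765 on the minus strand (Rpl13a), chr7:4792945-4792984 on the plus strand (Rpl28), chr7:3704021-3704060 on the plus strand (Rps9), chr10:128626487-128626526 on the minus strand (Rps26) and chr17:24727806-24727845 on the plus strand (Rpl3l).
Rpl13a: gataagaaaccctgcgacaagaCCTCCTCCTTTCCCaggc
Rpl28: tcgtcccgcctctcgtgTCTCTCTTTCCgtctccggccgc
Rps9: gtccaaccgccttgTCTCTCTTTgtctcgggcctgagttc
Rps26: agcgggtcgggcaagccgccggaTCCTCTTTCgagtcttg
Rpl3l: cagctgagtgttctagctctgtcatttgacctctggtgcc
The run is 14 bases long in Rpl13a, 11 in Rpl28 and 9 in Rps9 and Rps26, and the longest in Rpl3l, at the first of its 2 annotated starts, is 5.

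For CGGAAG, 3 genes that rose show it upstream of the start. Each line gives 60 bases before and 10 after the annotated start, and capitals mark CGGAAG or CTTCCG. The windows are chr12:28635944-28636013 on the minus strand (Rps7), chr3:86142659-86142728 on the minus strand (Rps3a1) and chr11:98026650-98026719 on the plus strand (Rpl19, the first of its 2 annotated starts).
Rps7: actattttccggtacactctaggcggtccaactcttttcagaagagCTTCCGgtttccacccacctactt
Rps3a1: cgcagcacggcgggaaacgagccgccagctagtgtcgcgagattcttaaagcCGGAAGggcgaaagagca
Rpl19: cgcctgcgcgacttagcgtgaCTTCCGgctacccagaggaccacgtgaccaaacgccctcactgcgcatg

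Of 90 other genes of the translation machinery 3 rose and 1 fell, where 4.24% of all genes by their brightest probe were called higher and 4.79% lower, so both counts lay below the background. With the replicate block 4 were higher and 2 lower. Among 16 elongation factors and other genes whose mRNAs carry a TOP sequence, 2 rose and 0 fell (4 higher and 1 lower at an unadjusted p under 0.05), with a median change of 0.06. Eef1b2, a subunit of the exchange factor for elongation factor eEF1A, read 12.05 in p21 muscles and 11.54 in control muscles (change 0.51 ± 0.10, adjusted p = 0.0196). Pabpc1, the poly(A)-binding protein, read 10.03 in p21 muscles and 9.62 in control muscles (change 0.41 ± 0.08, adjusted p = 0.0173). Eef1b2 lost its call without p21 replicate 4 or control replicate 2, and Pabpc1 without p21 replicate 4 or control replicate 1 or 2 and by the mean of its probes. Nap1l1 and Btf3 had changes of 0.30 and 0.19 (adjusted p = 0.0896 and 0.109), and Nap1l1 passed with the replicate block (adjusted p = 0.0441). Eef1a2, the eEF1A form of adult muscle, had a change of −0.14 ± 0.07 (adjusted p = 0.27). Fau, which encodes a small subunit protein under another symbol, had a change of 0.03 by a probe at the floor.

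Among 48 ribosome assembly genes, limma called 0 in either direction, with 4 higher and 4 lower at an unadjusted p under 0.05 and a median change of −0.01. Their smallest adjusted p was that of Eif6, which keeps the subunits apart until the large one is mature (change 0.28 ± 0.08, adjusted p = 0.0626). Nop58, of the box C/D particles that modify ribosomal RNA, and Heatr1, of the small subunit processome, had changes of 0.21 and 0.25 (adjusted p = 0.0664 and 0.0848), and Gnl3l of −0.18. All 4 had groups without overlap. Of 12 genes of RNA polymerase I and its factors, which make ribosomal RNA, limma likewise called 0 (1 higher and 0 lower at an unadjusted p under 0.05), with a median of 0.02. The smallest adjusted p there was that of Polr1c (change 0.16, adjusted p = 0.117).

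Of 12 genes that control translation or the supply of ribosomal proteins, 1 rose and 1 fell. Over all genes by their brightest probe 4.24% were called higher and 4.79% lower, so 1 call in each direction is near the background. Eif4ebp2, a repressor of cap-dependent translation that mTOR switches off, fell by −0.36 ± 0.08 (adjusted p = 0.0219), a call lost without p21 replicate 4 or control replicate 1 or 2. Max, the dimer partner of Myc, rose by 0.38 ± 0.09 (adjusted p = 0.0304), a call lost without p21 replicate 4 or control replicate 1, 2 or 4. Akt1s1 and Deptor, both inhibitors of mTOR, had changes of −0.34 and −0.21 (adjusted p = 0.0825 and 0.0953), and Akt1s1 passed with the replicate block (adjusted p = 0.0348). Changes below 0 were not particular to inhibitors, since 2 of the 12 genes had a change above 0 and the median was −0.03. Mlst8, Mtor and Eif4ebp1 had changes of −0.18, −0.03 and −0.02 (adjusted p = 0.139, 0.827 and 0.967).

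**Figure D5:**
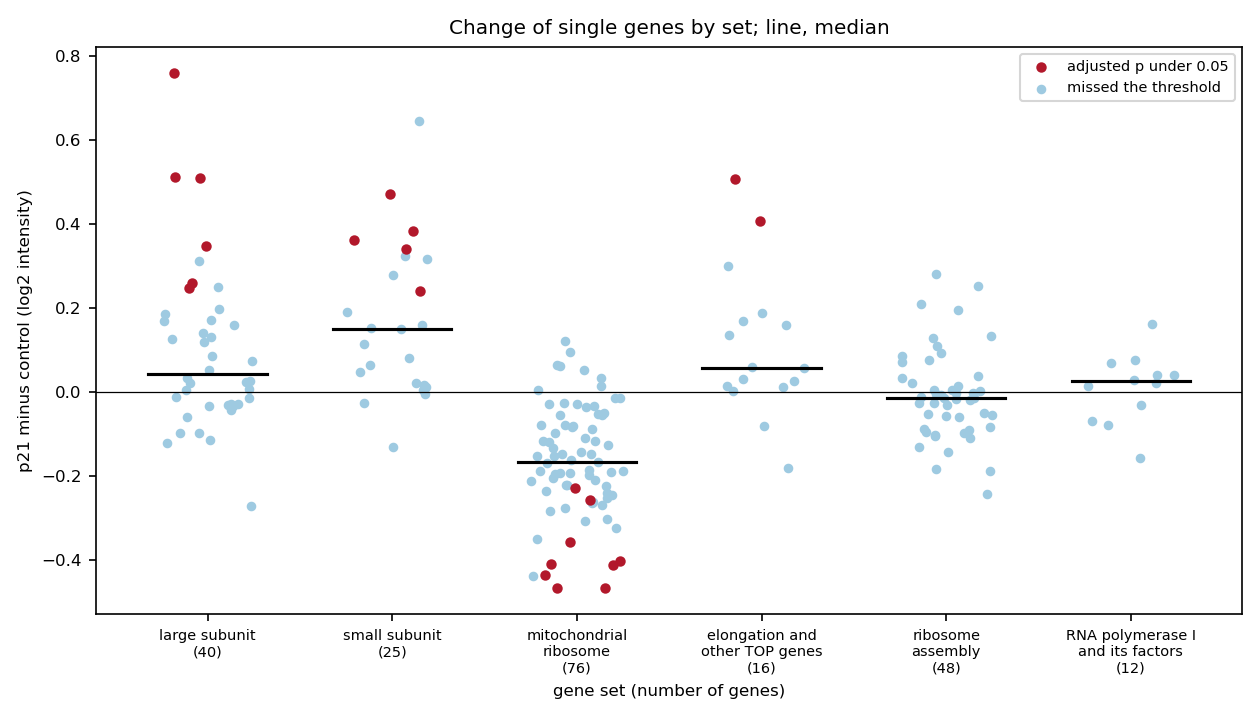
Change in p21 against control muscles (log2 intensity) of single genes in 6 sets, with the number of genes under each set, red points past adjusted p 0.05 and a line at each median. The medians are 0.04 and 0.15 for the large and small cytosolic subunits, −0.17 for the mitochondrial ribosome, 0.06 for elongation factors and other TOP genes, −0.01 for ribosome assembly and 0.02 for RNA polymerase I. Over genes with a probe brighter than the median probe, the large and small cytosolic medians are 0.14 and 0.17.

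The ribosomal proteins of mitochondria, which are encoded by other genes, had the opposite sign. Of 76 such genes 0 rose and 9 fell, where 4.24% of all genes by their brightest probe were called higher and 4.79% lower. At an unadjusted p under 0.05 the counts were 0 and 29, where 2627 and 3168 of all 25697 probes were higher and lower. The median change of the 76 was −0.17. Of the 65 cytosolic genes 11 rose and 0 fell, with a median of 0.08. The 9 that fell were 16 with the replicate block, 6 without p21 replicate 2, 1 and 2 without control replicates 3 and 4, and 0 without p21 replicate 4 or control replicate 1 or 2. Calls over all probes moved too. The 1119 lower were 1627 with the block, 906 without p21 replicate 2, and 469 and 585 without control replicates 3 and 4. They were 29 without p21 replicate 4, and 126 and 146 without control replicates 1 and 2. The difference between the mitochondrial and cytosolic sets was not tested.

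Markers of other cells differed in the same muscles, where 4.24% of all genes by their brightest probe were called higher and 4.79% lower. Of 20 macrophage markers 12 rose and 0 fell, and their mean log2 intensity lay between 10.77 and 11.19 in p21 arrays and between 9.69 and 10.40 in control arrays. It was 11.19 and 11.13 in p21 replicates 2 and 4, the arrays with the highest ribosomal protein means, and 10.77 in each of p21 replicates 1 and 3. In control replicates 1 to 4 it was 9.69, 9.99, 10.25 and 10.40. There the brighter large subunit genes averaged 11.75, 11.74, 11.74 and 11.76, and the small subunit ones 12.09, 12.09, 12.17 and 12.17. Fibroblast marker means were also highest in p21 replicates 2 and 4, at 11.84 and 11.41. So was the brightest Cdkn1a probe, at 11.72 and 11.50. In the same 2 arrays the fiber marker means (14.55 and 14.58) and mitochondrial ribosomal protein means (10.68 and 10.79) were the lowest of all 8. The T and NK cell, endothelial, and satellite cell and myoblast means did not set these 2 p21 arrays apart. Of the 20 macrophage markers 18 had a change above 0, and Cd163 had one of −0.17 (adjusted p = 0.25). The probes of 3 (Ptprc, Itgam and Ccr2) were no brighter than the median probe. Ccr2, a marker of recruited monocytes, was at the floor in both groups (8.22 in p21 and 8.24 in control muscles). Such a reading does not show whether these cells were present. Of 6 markers of satellite cells and myoblasts 3 rose (Myog, Mymk and Vcam1), with means of 9.15 to 9.28 in p21 arrays and 8.65 to 8.76 in control arrays. Pax7 and Myf5 lay at the floor, and Myod1 missed the threshold (limma adjusted p = 0.104). Of 9 endothelial markers 3 fell, with means of 9.96 to 10.04 in p21 arrays and 10.17 to 10.39 in control arrays. Of 9 fibroblast markers 1 rose, with means of 11.23 to 11.84 in p21 arrays and 10.81 to 11.35 in control arrays. Of 9 T and NK cell markers 1 rose, with means of 8.75 to 9.30 in p21 arrays and 8.55 to 8.92 in control arrays, and of 12 fiber markers 2 fell. With the replicate block 14 macrophage, 6 T and NK cell, 3 fibroblast and 4 satellite cell and myoblast markers were higher and 6 endothelial markers lower. With an array left out the macrophage count was lowest at 4, without p21 replicate 4, and was 8 and 7 without control replicates 1 and 2. The satellite cell and myoblast count was at least 2. The endothelial count was 0 without p21 replicate 4 or control replicate 1, 2 or 4 and 1 without p21 replicate 1, and the fiber count was 0 without p21 replicate 4 or control replicate 2 and 1 without control replicate 1 or 3. The fibroblast call was lost without p21 replicate 4 or control replicate 1, 2 or 3, and the T and NK cell call without any single array but p21 replicate 2, where 3 passed. The part of these cells in the ribosomal protein changes was not tested.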

How the data were processed

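Total RNA was amplified, labelled with biotin and hybridised to Illumina bead arrays of 1 colour, per the labels' protocols. The deposited values are log2 intensities, for which the scanner software, any background correction and the normalization method were not given by the sources used here. Ranked from low to high, the 8 arrays held the same values within 0.00073, as quantile normalization gives. Probes were named from the platform annotation, and all 83 member probes matched a RefSeq gene by Entrez number, with 0 symbols changed.

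The groups, taken from the sample titles, entered limma 3.58.1 under R 4.3.3 (lmFit, and eBayes with an intensity trend) over all 25697 probes, two-sided, with Benjamini-Hochberg adjustment and a threshold of 0.05. Single probes and paralogue differences were also tested by exact two-sided permutation over 70 regroupings. A gene stands for its brightest probe by the mean over 8 arrays. No probe was filtered, and the number of arrays limits the precision.

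The members, lists and naming rule were chosen with earlier results of these data known. The rule names paralogue pairs, members past the threshold, genes of known role, the extremes of each subunit and up to 4 genes of each list; others named by value were picked after their values were seen. Same-numbered arrays of the 2 groups deviated together (correlations 0.483, 0.264, 0.212 and 0.181, all over the 0.1 set as the minimum for pairs), so pairing comes from the data and not the labels. It is uncertain, since p21 replicates 2 and 4 correlated more with control replicates 4 (0.297) and 3 (0.448). Alternatives were the replicate block, brighter probes only, median centring, repeated quantile normalization, a background-subtracted scale (offset 16), eBayes without trend or robust, array weights, other thresholds, averaging all probes of a gene, and each array left out in turn. In a simulation of 25697 probes, the fit found 81% of the true changes of 0.5 and 98% of those of 1. Of its 186 calls 7 were wrong. Recovery was not checked separately for probes near the floor, nor for arrays that deviate together. For the real arrays these shares may therefore be too high and wrong calls more common, and for the 28 member probes near the floor they give no guide.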

Additional observations from a re-analysis of the deposited data

Results flagged for a closer look

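In 6 of 72 groups of 4 arrays checked (34 named genes and the 2 subunit means), 1 array lay far from the others, by a gap past Dixon's critical value for 4 samples. Chance flags about 1 group in 20. In p21 muscles, replicate 2 stood apart in Rpl22 (10.91, the others 10.61 to 10.66), in Rps7 (14.45, the others 14.03 to 14.09) and in Rplp1 (15.02, the others 14.99), and replicate 1 in Rps27l (13.67, the others 13.54 to 13.56). In control muscles, replicate 1 stood apart in Rpl27 (13.96, the others 14.03) and replicate 4 in Rps7 (13.88, the others 13.79 to 13.80). The call of Rps7 held without p21 replicate 2 and was lost without control replicate 4, and that of Rpl27 was lost without control replicate 1.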

How the results depend on the processing

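With the main setting 6 large and 5 small subunit probes were higher and 0 lower. The large subunit count was 11 with eBayes without the trend, 10 at adjusted p 0.1 and 0 at 0.01. The small subunit count was 8 with the replicate block, 9 over brighter probes only, 12 at adjusted p 0.1 and 0 at 0.01. Of all probes tested 3.34% were called higher without the trend, 6.07% with the block, 9.92% over brighter probes, 6.16% at 0.1 and 0.424% at 0.01. With an array left out these counts ranged from 0 to 6 and from 0 to 8, and no setting called a member lower. The block ended no call of a named member. Robust eBayes ended the call of Rpl27, eBayes without the trend that of Rps7, and the mean of the probes that of Rps24. The large subunit median of 0.04 was 0.12 after background subtraction and 0.14 with brighter probes alone, and ranged from 0.0279 to 0.0703 with an array left out. The small subunit median of 0.15 was 0.17 with brighter probes alone, and ranged from 0.0648 to 0.173 with an array left out. Of the 90 genes of the translation lists, 3 were higher and 1 lower. The higher count was 7 over brighter probes, without the trend and at adjusted p 0.1, and 0 at 0.01. The lower count was 2 with the replicate block, over brighter probes and with array weights, 3 without the trend and at adjusted p 0.1, and 0 at 0.01. With an array left out they ranged from 0 to 3 and from 0 to 1. The cause was not tested beyond the smaller number of probes or arrays that a setting leaves. The block and each array left out were added after seeing the data for the counts of mitochondrial ribosome and cell markers. The paralogue differences, with settings also chosen after seeing the data, ranged with an array left out from 0.77 to 1.16 for Rpl3 with Rpl3l and from 0.20 to 0.33 for Rpl36a with Rpl36al, and were 1.06 and 0.29 on the background-subtracted scale. The mean of the probes was not run for probe counts. Signal limits the 28 probes near the floor.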
